A study of Capsicum chinense with 22 samples.

Results

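The genes described here encode the enzymes that build starch in the fruit wall (pericarp) of the pepper Capsicum chinense. They are 10 of the 16922 genes in the expression table, taken by gene identifier: 3 large subunits of ADP-glucose pyrophosphorylase (AGPase), 4 starch synthases and 3 starch branching enzymes. Starch is made inside plastids. AGPase turns glucose 1-phosphate and ATP into ADP-glucose and is known as the main control point of the pathway, with catalytic small subunits and large subunits that mostly set its regulation. Starch synthases add the glucose of ADP-glucose to growing chains. Granule-bound synthase 1 makes amylose and soluble synthases make amylopectin chains, while branching enzymes cut a chain and rejoin it as a side branch. Young green pepper fruit stores starch for a time, and this store is used up as the fruit ripens.

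Pericarp transcriptomes were available for 4 accessions at 60 and 20 days after anthesis (DAA), the ripe and the immature stage. The accessions were Hab (Habanero, pungent with red ripe fruit), A101 (pungent, yellow), Biq (Biquinho, non-pungent, red) and A18 (non-pungent, yellow), all grown in a greenhouse with no treatment. At 60 DAA there were 2 Hab, 3 A101, 3 Biq and 3 A18 libraries, and at 20 DAA there were 3 Hab, 3 A101, 3 Biq and 2 A18 libraries, 22 in all. Each library came from several fruits of a single plant, and the plants stood in a randomized block layout whose blocks the table does not name. Pungency and colour each rest on 2 accessions a class, so neither trait can be told apart from the other differences between the accessions.

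Each value is a variance-stabilized expression level on a log2 scale with the mean of the gene over all 22 libraries subtracted. A gene can therefore be compared between libraries, but its level cannot be compared with that of another gene, and the values carry no read depth, since no counts were used here. Positive differences between stages mean higher values at 60 DAA. A difference passed the threshold when its adjusted p, from limma with Benjamini-Hochberg adjustment over all 16922 genes, was under 0.05 and its size was at least 1 on the log2 scale. Gene names are those of the table, which follow the C. annuum annotation, and short names such as AGPL1 are used for them. In whole pericarp, fewer cells of a type and less RNA per cell cannot be told apart.

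The stage labels held in the ripe-fruit marker capsanthin/capsorubin synthase, which makes the red ketocarotenoids and ranged from 4.90 to 7.10 at 60 DAA, against -6.74 to -4.63 at 20 DAA. All 22 libraries lay nearest to a library of their own group. The 3 Hab libraries at 20 DAA were the most spread, 52.1 to 67.3 apart (Euclidean distance over all genes), against 23.0 to 44.9 within the other 7 groups. Of 3 vicilin genes used as seed markers, 1 rose on average (vicilin C72-like, 1.57) and stood at its lowest value in 11 libraries. Its differences were 0.02 (Hab), 2.79 (A101), 2.28 (Biq) and 1.21 (A18). Only 3 acyl carrier genes matched the names searched for placenta. No gene matched Pun1 acyltransferase, vanillin aminotransferase or beta-ketoacyl-ACP synthase, so placenta content cannot be read from this list. The average stage differences of the 3 genes lay between -0.69 and 0.68, but single accessions passed the threshold in both directions. LOC107865868 fell in A101 (-1.44) and A18 (-1.51) and rose in Biq (1.16), and LOC107842475 rose in A18 (1.23). The part of seed or placenta tissue in the differences of the 10 genes was not tested. The median stage difference over all genes was -0.08 on average, between -0.11 in Hab and -0.05 in A18.

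The AGPase large subunit genes went 3 separate ways during ripening. AGPL1 (LOC107840421) had one of the deepest falls of the 10 genes, AGPL3 (LOC107841023) fell less and to a degree that depended on the accession, and AGPL2 (LOC107853748) moved by less than the threshold. At 60 DAA, AGPL1 stood at -3.48 and -3.62 in Hab, at -1.94, -2.74 and -2.24 in A101, at -3.06, -3.53 and -3.20 in Biq, and at -3.20, -3.11 and -3.37 in A18. At 20 DAA, it stood at 3.21, 2.20 and 2.85 in Hab, at 3.24, 2.99 and 3.25 in A101, at 3.07, 3.04 and 3.23 in Biq, and at 3.11 and 3.28 in A18. The stages did not overlap, and the A101 libraries were the highest of the ripe fruit. The average difference over the accessions was -6.14 ± 0.11 (SE; adjusted p = 3.72e-20, limma), and the 4 accessions lay between -6.42 in A18 and -5.46 in A101.

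The immature level of AGPL3 set its accessions apart, whereas the ripe levels were almost equal. At 60 DAA it ranged from -1.18 to -0.87 over all 11 libraries, with a median of -1.02. At 20 DAA, its values were 0.51, 0.99 and 0.65 in Hab, 1.34, 1.39 and 1.39 in A101, 0.40, 0.40 and 0.35 in Biq, and 1.89 and 1.76 in A18. The yellow accessions were thus above every red library at 20 DAA. AGPL3 fell in every accession, with differences of -1.85 (Hab), -2.37 (A101), -1.37 (Biq) and -2.79 (A18) and an average of -2.10 ± 0.05 (SE; adjusted p = 1.03e-17, limma).

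AGPL2, the least variable of the 10 genes, lay between -0.67 and 0.37 at 60 DAA (median 0.09) and between -0.30 and 0.31 at 20 DAA (median 0.03), so the stages overlapped. Its average difference of -0.14 ± 0.06 had an adjusted p of 0.0423 (limma) but was far below the size threshold. The lowest AGPL2 values were those of ripe Hab, -0.67 and -0.59, and Hab alone gave a difference of -0.50 ± 0.13 (SE; adjusted p = 0.00226, limma), also under the size threshold.

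**Figure D1:**
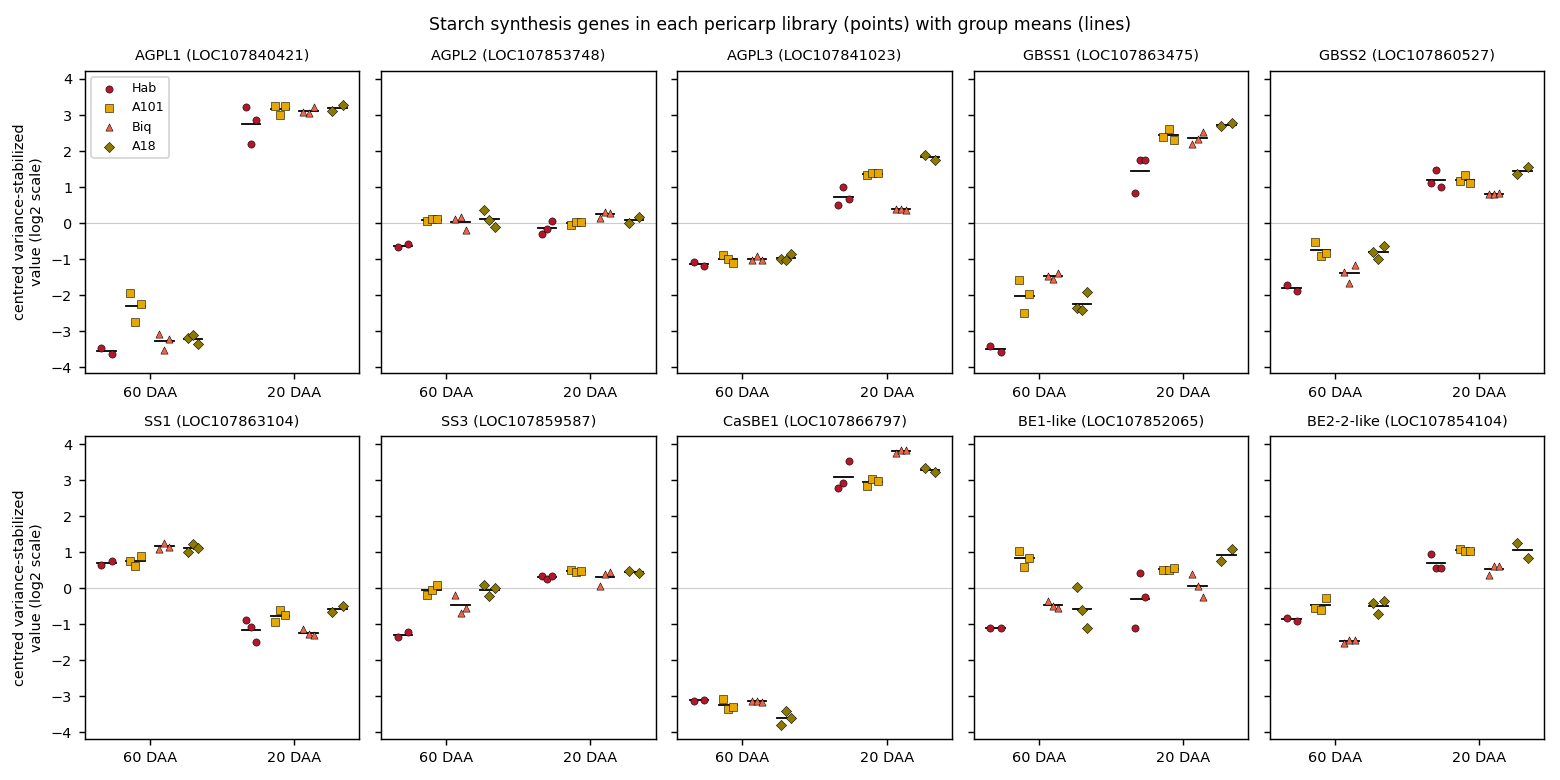
Centred variance-stabilized value (log2 scale) of each of the 10 starch synthesis genes in all 22 pericarp libraries, with 60 DAA left of 20 DAA in each panel, points for libraries, symbols for accessions and short lines for group means. AGPL1, GBSS1 and CaSBE1 drop by several units at 60 DAA, SS1 is higher at 60 DAA in every library, and AGPL2 stays near 0 apart from the ripe Hab libraries.

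Among the starch synthases, both genes named granule-bound fell and those named soluble split. GBSS1 (LOC107863475, granule-bound starch synthase 1), the enzyme that makes amylose within the granule, fell in every accession, with differences of -4.94 (Hab), -4.45 (A101), -3.82 (Biq) and -4.96 (A18). At 60 DAA, GBSS1 stood at -3.41 and -3.58 in Hab, at -1.58, -2.49 and -1.98 in A101, at -1.48, -1.55 and -1.39 in Biq, and at -2.37, -2.42 and -1.91 in A18. At 20 DAA, its values were 0.83, 1.76 and 1.76 in Hab, 2.38, 2.60 and 2.31 in A101, 2.20, 2.33 and 2.52 in Biq, and 2.68 and 2.78 in A18. Hab was the lowest accession at both stages, with no overlap with the other 3 accessions at either. The average difference of GBSS1 was -4.55 ± 0.12 (SE; adjusted p = 9.63e-18, limma).

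GBSS2 (LOC107860527) is named granule-bound starch synthase 2 in the annotation, which does not show that its enzyme makes amylose. GBSS2 changed by a smaller amount than GBSS1. It ranged from -1.88 to -0.53 at 60 DAA (median -0.99), against 0.80 to 1.55 at 20 DAA (median 1.12). The Hab libraries were again the lowest in ripe fruit, at -1.72 and -1.88. Its average difference was -2.36 ± 0.08 (SE; adjusted p = 2.61e-16, limma), from -3.00 in Hab to -1.96 in A101.

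SS1 (LOC107863104, soluble starch synthase 1), which elongates the shortest amylopectin chains in the plants where it has been studied, was the only member of the 10 that rose. At 60 DAA, SS1 stood at 0.64 and 0.75 in Hab, at 0.75, 0.63 and 0.91 in A101, at 1.09, 1.27 and 1.14 in Biq, and at 1.00, 1.23 and 1.13 in A18. At 20 DAA, it stood at -0.89, -1.07 and -1.48 in Hab, at -0.94, -0.61 and -0.72 in A101, at -1.12, -1.26 and -1.30 in Biq, and at -0.66 and -0.50 in A18. Every ripe library was above every immature library. SS1 rose in every accession, by 1.84 (Hab), 1.52 (A101), 2.40 (Biq) and 1.70 (A18), and on average by 1.87 ± 0.07 (SE; adjusted p = 2.02e-15, limma).

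SS3 (LOC107859587, soluble starch synthase 3), linked to longer amylopectin chains and to granule initiation in other plants, changed past the threshold in Hab alone. In Hab it stood at -1.36 and -1.22 at 60 DAA, against 0.33, 0.26 and 0.35 at 20 DAA, a difference of -1.61 ± 0.14 (SE; adjusted p = 2.98e-09, limma). The differences in A101, Biq and A18 were -0.54, -0.78 and -0.51, with adjusted p of 0.000751, 1.15e-05 and 0.00325 (limma), all short of the size threshold. The stages did not overlap within any accession, but over all libraries they did, since the highest ripe value (0.09, in A18) was just above the lowest immature value (0.06, in Biq).

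CaSBE1 (LOC107866797), the branching enzyme gene that carries the least specific name in the table (1,4-alpha-glucan-branching enzyme-like), showed the largest stage difference of the 10 genes. At 60 DAA, CaSBE1 stood at -3.12 and -3.09 in Hab, at -3.08, -3.34 and -3.30 in A101, at -3.13, -3.12 and -3.16 in Biq, and at -3.79, -3.40 and -3.60 in A18. At 20 DAA, its values were 2.78, 2.94 and 3.54 in Hab, 2.83, 3.04 and 2.99 in A101, 3.76, 3.84 and 3.85 in Biq, and 3.35 and 3.22 in A18. No library of either stage came within several units of the other stage. Its differences were -6.19 (Hab), -6.19 (A101), -6.95 (Biq) and -6.88 (A18), on average -6.55 ± 0.08 (SE; adjusted p = 1.64e-22, limma), and stage accounted for 99.1% of its variance over the libraries.

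BE2-2-like (LOC107854104, branching enzyme 2-2), of the class that makes the short branches of amylopectin in other plants, fell in all 4 accessions by a more modest amount. It ranged from -1.50 to -0.27 at 60 DAA (median -0.72), against 0.36 to 1.26 at 20 DAA (median 0.85). Its differences were -1.55 (Hab), -1.53 (A101), -2.00 (Biq) and -1.55 (A18), and the average was -1.66 ± 0.07 (SE; adjusted p = 2.16e-14, limma). The ripe Biq libraries, at -1.50, -1.44 and -1.43, were below all other ripe libraries.

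BE1-like (LOC107852065, branching enzyme 1) varied more by accession than by stage. At 60 DAA, BE1-like stood at -1.10 and -1.10 in Hab, at 1.05, 0.60 and 0.85 in A101, at -0.36, -0.49 and -0.55 in Biq, and at 0.03, -0.60 and -1.10 in A18. At 20 DAA, it stood at -1.10, 0.43 and -0.24 in Hab, at 0.51, 0.52 and 0.57 in A101, at 0.39, 0.06 and -0.23 in Biq, and at 0.77 and 1.10 in A18. The value of -1.10 was the lowest of the gene and was shared by 4 libraries, 3 of them of Hab. Only A18 passed the threshold, with a fall of 1.49 ± 0.32 (SE; adjusted p = 0.000424, limma), a call that was lost when a difference of at least 1 was itself the tested hypothesis (limma's treat, adjusted p = 0.279). In A101 the ripe libraries were all above the immature ones, by 0.30 ± 0.29 (SE; adjusted p = 0.365, limma). Stage took 12.6% of the variance of BE1-like and accession 48.0%.

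In Hab, 7 of the 10 genes fell and 1 rose, where 26% of all genes were lower and 18.7% higher by the same threshold. The A101 counts were 6 and 1, beside 19.7% and 10.6% of all genes. The Biq counts were also 6 and 1, beside 23.3% and 15.5%, and those of A18 were 7 and 1, beside 20.6% and 11.4%. The lower share was therefore above that of the whole table in every accession. On the average of the accessions, 6 were lower and 1 higher, beside 21.5% and 13.2% of all genes, and the median difference of the 10 was -1.88, against -0.08 for the whole table.

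The same 6 genes (AGPL1, AGPL3, GBSS1, GBSS2, CaSBE1 and BE2-2-like) were lower past the threshold in all 4 accessions, as were 13.5% of all genes, and SS1 was higher in all 4, as were 6.7%. In these 6 genes the 11 ripe libraries also did not overlap with the 11 immature ones, which held for 21.6% of all genes in that direction. SS1 was likewise without overlap in the other direction (15.7% of all genes). By variance over the 22 libraries, CaSBE1 ranked 72 and AGPL1 ranked 98 among the 16922 genes, and AGPL2 ranked 14518. The counts per accession and on average were redone under 8 other settings and with each library left out in turn. All 298 recalculated counts stayed within 1.5 times of these values, many of them for an accession that lost no library. That limit still held 9 genes lower on average, found with no minimum difference, in place of 6.

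**Figure D2:**
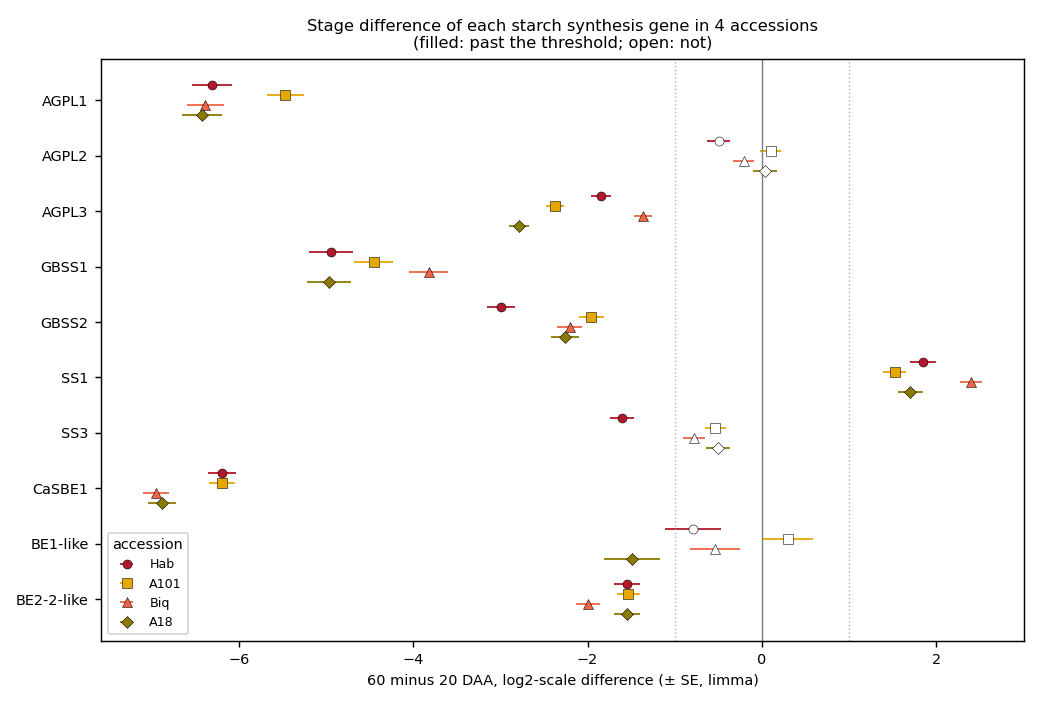
Difference between 60 and 20 DAA (log2 scale, ± SE from limma) of each of the 10 starch synthesis genes in Hab, A101, Biq and A18, with filled symbols past the threshold, open symbols not, and dotted lines at -1 and 1. CaSBE1 and AGPL1 lie below -5 in every accession, SS1 lies above 1 in every accession, and BE1-like is spread over both sides of 0.

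Genes of the same enzyme class were next compared within each library, which removes anything that shifts a whole library. For each pair the difference between the values of both genes was taken, and its stage change was tested by an exact two-sided permutation of the stage labels within accessions (40000 arrangements, smallest possible p = 2.5e-05), adjusted over the 12 pairs. All 12 pairs changed between stages. Each change equals the gap between the average stage differences of both genes, as given above, and the pairs share genes. The 12 tests are thus not independent of each other or of those differences. Because every gene is centred on its own mean, these tests show unequal change and not which gene of a pair was more abundant.

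Within the AGPase large subunits, AGPL1 minus AGPL2 ranged from -3.69 to -2.00 at 60 DAA, against 2.37 to 3.51 at 20 DAA, a change of -6.0 (exact p = 2.5e-05, adjusted 2.73e-05). The change of AGPL1 minus AGPL3 was -4.05, and AGPL2 gained 1.95 on AGPL3, each at the same p. The order of change was thus AGPL1, AGPL3 and AGPL2 in each of the 4 accessions. The gap between AGPL1 and AGPL3 was widest in Biq (-5.01) and narrowest in A101 (-3.09).

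Within the synthases, GBSS1 minus SS1 changed by -6.41 and GBSS2 minus SS1 by -4.22 (exact p = 2.5e-05 each, adjusted 2.73e-05). GBSS1 minus GBSS2 changed by -2.19 at the same p, and here the stages did overlap, with -1.70 to 0.13 at 60 DAA, against -0.28 to 1.69 at 20 DAA. SS1 minus SS3 ranged from 0.69 to 2.00 at 60 DAA, against -1.83 to -0.94 at 20 DAA, a change of 2.72 without overlap. The sign of the change was shared by all 4 accessions in each of these pairs.

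Within the branching enzymes, CaSBE1 minus BE1-like changed by -5.92 and CaSBE1 minus BE2-2-like by -4.90 (exact p = 2.5e-05 each, adjusted 2.73e-05). BE1-like minus BE2-2-like changed by 1.03 (exact p = 0.0018, adjusted 0.0018), the smallest change of the 12, and the stages overlapped. In A18 that change was 0.05, and in A101 it was 1.83. With group medians in place of means, this last pair had a change of 1.01 and an adjusted p of 0.0514 from the same exact permutation test, the only pair to miss the threshold under that setting.

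**Figure D3:**
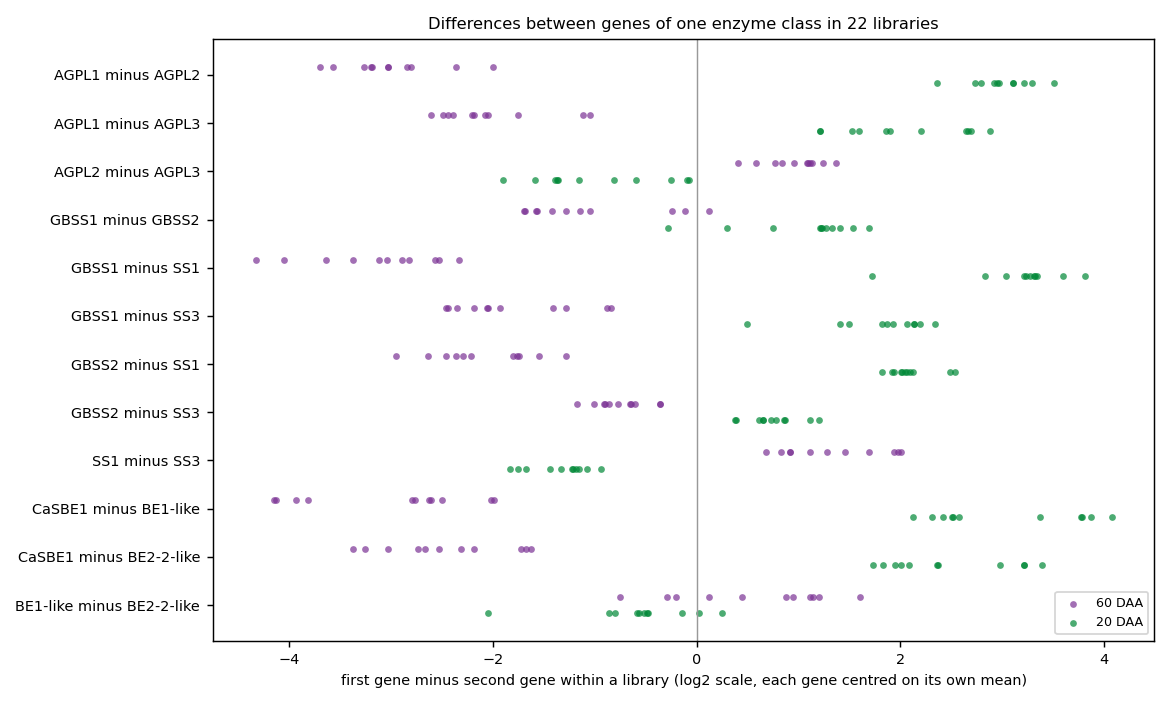
Difference between the centred values of 2 genes of one enzyme class within each library (log2 scale), with 11 points at 60 DAA drawn above 11 points at 20 DAA for each of 12 pairs. The stages separate without overlap for every pair except GBSS1 minus GBSS2 and BE1-like minus BE2-2-like.

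The accessions differed in how strongly 5 of the 10 genes changed with ripening (moderated F over 3 contrasts in limma, with a largest difference between 2 accessions of at least 1), a share to be read beside 34.2% of all genes. AGPL3 differed by up to 1.42 (Biq against A18; adjusted p = 2.67e-06), SS3 by up to 1.10 (Hab against A18; adjusted p = 0.000205) and GBSS2 by up to 1.04 (Hab against A101; adjusted p = 0.00259). GBSS1 differed by up to 1.14 (Biq against A18; adjusted p = 0.0146) and BE1-like by up to 1.79 (A101 against A18; adjusted p = 0.00952), all from limma. Hab had the deepest fall of SS3 and GBSS2, and A18 that of AGPL3. Past the threshold, Hab was separated from A101 and A18 in SS3, but from A101 alone in GBSS2. A18 was separated from Biq alone in AGPL3. In AGPL1, SS1, CaSBE1 and AGPL2 the adjusted p was also under 0.05 (0.0228, 0.00241, 0.0038 and 0.0267, limma), but the largest differences of 0.96, 0.88, 0.76 and 0.60 stayed under the size threshold. Libraries are numbered here by their column order within a group. GBSS2 was under the size threshold without the second Hab library (0.90) or the third A101 library (0.99) at 20 DAA and without the first A101 (0.92) or second Hab (0.96) library at 60 DAA, and AGPL1 passed in 6 of the 22 runs with a library left out (0.77 to 1.17 over all runs). GBSS2 was also under it after subtraction of each library's median (0.997) and with array weights (0.983). After quantile normalization GBSS1, GBSS2 and SS3 were under it, at 0.95, 0.68 and 0.78, and CaSBE1 passed at 1.07.

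At 20 DAA, 3 of the 10 genes differed between accessions, beside 15.9% of all genes. For AGPL3 the order was A18, A101, Hab and Biq, with means of 1.83 ± 0.09 (SD, n = 2), 1.37 ± 0.03 (SD, n = 3), 0.72 ± 0.25 (SD, n = 3) and 0.39 ± 0.03 (SD, n = 3). Every neighbouring step had an adjusted p under 0.05 (0.0129, 6.66e-05 and 0.0187, limma), but the steps of 0.45, 0.65 and 0.33 were under the size threshold. The red accessions differed from the yellow ones by -1.05 ± 0.08 (SE; adjusted p = 2.89e-09, limma), a contrast in which 3.37% of all genes were lower. The photosynthesis genes followed the same order. The mean of 63 photosystem, chlorophyll-binding and Rubisco genes was 2.15 to 2.25 in the A18 libraries, 1.97 to 2.04 in A101, 0.32 to 0.65 in Hab and -0.59 to -0.43 in Biq at 20 DAA, and the part of these genes in the AGPL3 difference was not tested.

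GBSS1 at 20 DAA averaged 1.45 ± 0.54 in Hab (SD, n = 3) and 2.73 ± 0.07 in A18 (SD, n = 2), a difference of -1.28 ± 0.25 (SE; adjusted p = 0.000757, limma). The steps from A18 to A101 and from A101 to Biq, next to each other in order, had adjusted p of 0.581 and 0.808 (limma). That fit shares its estimate of spread over all groups. Both A18 libraries, at 2.68 and 2.78, still lay above the A101 libraries, at 2.38, 2.60 and 2.31. BE1-like differed between Hab and A18 by -1.24 ± 0.32 (SE; adjusted p = 0.0075, limma). Between these accessions, 4.43% of all genes were lower in Hab. Without the first Hab library at 20 DAA, which had the lowest GBSS1 and BE1-like values of its group, the largest differences were 0.97 and 0.86, and AGPL3 was the only gene of the 3 still past the threshold. BE1-like also missed it without the second A18 library at 20 DAA (1.08, adjusted p = 0.055, limma).

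At 60 DAA, 5 of the 10 genes differed between accessions, beside 30.2% of all genes, and Hab was the lowest accession in each. GBSS1 in Hab, at -3.49 ± 0.12 (SD, n = 2), stood apart from Biq, at -1.47 ± 0.08 (SD, n = 3), by -2.02 ± 0.25 (SE; adjusted p = 2.68e-06, limma), and 5.35% of all genes were lower in this contrast. SS3 differed by -1.25 ± 0.14 between Hab and A18 and by -1.24 ± 0.14 between Hab and A101 (SE; adjusted p = 5.48e-07 and 5.07e-07, limma), where 7.38% and 9.3% of all genes were lower in Hab. AGPL1 differed by -1.24 ± 0.23 and GBSS2 by -1.04 ± 0.16 between Hab and A101 (SE; adjusted p = 0.000149 and 2.07e-05, limma). These 4 genes had in common that the 2 ripe Hab libraries lay below all 9 other ripe libraries, except in AGPL1, where a Biq library at -3.53 fell between them.

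BE1-like differed by -1.93 ± 0.32 between Hab and A101 at 60 DAA (SE; adjusted p = 4.62e-05, limma), and A101 was also above Biq by 1.30 ± 0.29 and above A18 by 1.39 ± 0.29 (SE; adjusted p = 0.000951 and 0.00118, limma), where 5.63% and 2.92% of all genes were higher in A101. By contrast, the ripe levels of AGPL3 were within 0.17 of each other over the accessions (adjusted p = 0.547, limma). GBSS2 at 60 DAA was under the size threshold without the first A101 (0.99) or the second Hab (0.96) library of that stage, after median subtraction (0.992), with array weights (0.991) and after quantile normalization (0.72), which also took SS3 to 0.95. BE2-2-like, at 0.98, passed with array weights (1.14) and in 3 of the 22 runs with a library left out.

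Grouped by fruit colour, none of the 10 stage differences differed past the threshold between red and yellow accessions, beside 11% of all genes (limma; 5 of the 10 at an unadjusted p under 0.05). At an adjusted p under 0.05 and without the size threshold, 2 were higher and 3 lower in this contrast (limma). AGPL3 came nearest, falling by less in the red accessions by 0.97 ± 0.11 (SE; adjusted p = 1.26e-06, limma). It passed with a difference of 1.01 after quantile normalization or with array weights, with 1.00 without the second A18 library at 20 DAA, and with 1.04 without the second Hab library at 20 DAA.

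Grouped by pungency, the count was also 0 of 10, beside 3.45% of all genes (limma; 5 of the 10 at an unadjusted p under 0.05). Here 1 was higher and 1 lower at an adjusted p under 0.05 without the size threshold (limma). CaSBE1 fell by less in the pungent accessions, -6.19 and -6.19, than in the non-pungent ones, -6.95 and -6.88, by 0.73 ± 0.15 (SE; adjusted p = 0.0024, limma), under the size threshold. In the third grouping, Hab with A18 against Biq with A101, 1 of 10 genes passed, beside 1.91% of all genes lower in this contrast: BE1-like, by -1.02 ± 0.30 (SE; adjusted p = 0.0179, limma). It was under the size threshold, between -0.998 and -0.841, without the second A18, the second Hab or the third Biq library at 20 DAA and without the third A18, the first A101 or first Biq library at 60 DAA.

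The remaining genes of starch synthesis named in the table were 10 further ones, of which 2 fell on average and none rose past the threshold (limma; none rose at an unadjusted p under 0.05), beside 21.5% and 13.2% of all genes. The AGPase small subunit (LOC107878514), the catalytic partner of the large subunits, fell by 3.87 ± 0.09 on average (SE; adjusted p = 2.42e-18, limma) and in all 4 accessions, with differences of -4.29 (Hab), -2.93 (A101), -4.42 (Biq) and -3.84 (A18). These values lay between those of AGPL1 and AGPL3 in each accession, an order that was not tested. A starch synthase 4 gene (LOC107860138), whose relatives help start new granules in other plants, fell by 1.98 ± 0.12 (SE; adjusted p = 7.25e-12, limma), whereas the other starch synthase 4 gene (LOC107855766) differed by -0.11 on average, with -1.30 in Hab and 0.76 in Biq.

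The debranching enzymes, which cut branch points in glucans, lay under the size threshold on average. They were listed by name, and whether each acts in starch synthesis or in starch breakdown was not tested. The 2 isoamylase 1 genes (LOC107877996 and LOC107878002) were at -0.76 and -0.38, isoamylase 2 (LOC107859319) at 0.02, the 2 isoamylase 3 genes (LOC107876454 and LOC107877837) at -0.94 and -0.75, and pullulanase 1 (LOC107850428) at -0.70. The third branching enzyme type (LOC107878744, branching enzyme 3) was at -0.46. Counted by accession, 7 of the 10 fell in each of the red accessions, Hab and Biq, beside 26% and 23.3% of all genes, and 3 and 2 fell in A101 and A18, beside 19.7% and 20.6%. On the difference between red and yellow accessions, 2 of the 10 passed the threshold, both lower in this contrast, beside 4.63% of all genes.

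The list for precursor supply held 35 genes matched by name, among them sucrose synthases, hexokinases, pyrophosphatases and translocators, inside and outside the plastid. Whether each supplies sugar phosphates to the plastid was not tested. On average 13 fell and 3 rose, beside 21.5% and 13.2% of all genes, with a median of -0.63. A sucrose synthase-like gene (LOC107877893), of the family that splits sucrose in sink tissue, fell by 4.94 ± 0.13, the glucose-6-phosphate/phosphate translocator 2-like gene (LOC107864030), which brings glucose 6-phosphate into the plastid, by 4.43 ± 0.15, and the plastid hexokinase-2 gene (LOC107866897) by 3.29 ± 0.08 (SE; adjusted p = 1.23e-17, 3.31e-16 and 2.97e-18, limma). The sucrose synthase-like gene stood at its lowest value in 5 libraries and the translocator gene in 3. By accession the former differed by -2.95 (Hab), -5.36 (A101), -5.55 (Biq) and -5.89 (A18). Sucrose synthase 2 (LOC107864054) rose by 3.86 ± 0.07 (SE; adjusted p = 4.62e-20, limma). Another hexokinase-2 gene (LOC107840969) and fructokinase-like 2 (LOC107847436) rose by 1.06 and 1.04, past the threshold in 3 and 2 accessions. A further gene named hexokinase-2 (LOC107876107) went the other way, with a difference of -1.46 (adjusted p = 7.74e-15, limma).

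The list for starch breakdown held 23 genes matched by name, and whether each acts in breakdown was not tested. These genes were divided, with 7 that rose and 5 that fell, beside 13.2% and 21.5% of all genes. The falls were thus near the share of the whole table, and the median of the 23 genes was 0.09. An alpha-amylase-like gene (LOC107867838), which cuts within glucan chains, rose by 5.69 ± 0.06, beta-amylase 1 (LOC107864541), which releases maltose from chain ends, by 3.19 ± 0.24, and beta-amylase 3 (LOC107869091) by 2.40 ± 0.11 (SE; adjusted p = 4.88e-23, 1.33e-10 and 1.09e-13, limma). The plastid glucan phosphorylase L-2 (LOC107847630) fell by 4.93 ± 0.10, a beta-amylase gene (LOC107878266) by 2.84 ± 0.08 and glucan phosphorylase H (LOC107842585) by 2.06 ± 0.10 (SE; adjusted p = 1.17e-19, 5.79e-17 and 2.56e-13, limma).

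The 63 photosynthesis genes had 48 that fell and 1 that rose on average, beside 21.5% and 13.2% of all genes. Their median of -1.80 was close to that of the 10 starch synthesis genes on the average of the accessions only. By accession it was -1.70 (Hab), -2.68 (A101), -0.84 (Biq) and -2.02 (A18), against -1.73, -1.75, -1.68 and -1.91 for the 10 genes. Rubisco small chain 8B (LOC107858580), part of the carbon-fixing enzyme, had a difference of -5.66, and 2 chlorophyll a-b binding protein 1B genes (LOC107855779 and LOC107855767) had -4.88 and -4.48. The single gene that rose was photosystem I subunit psaK (LOC107848242), by 2.91. Their stage differences separated red from yellow accessions in 43 of the 63 genes, 38 of them higher and 5 lower in this contrast, beside 6.38% and 4.63% of all genes. For the 10 starch synthesis genes the count was 0, beside 11% of all genes in either direction, and AGPL3 missed by size alone, at 0.97.

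**Figure D4:**
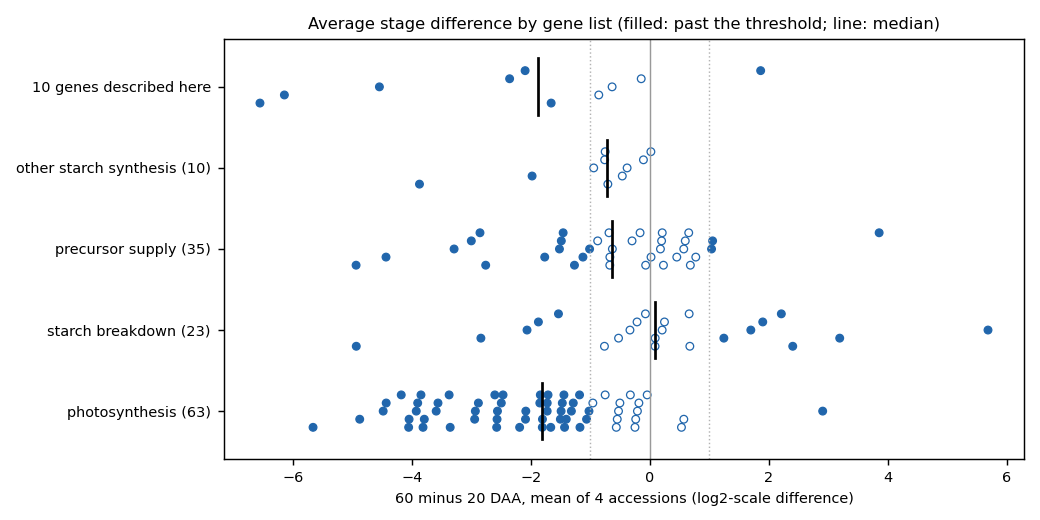
Average difference between 60 and 20 DAA (log2 scale, mean of the 4 accessions) of each gene in 5 lists, the 10 starch synthesis genes described here at the top, with filled points past the threshold, open points not, a vertical line at each median and dotted lines at -1 and 1. The medians were -1.88, -0.73, -0.63, 0.09 and -1.80 down the page.

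Likeness between genes was described by the correlation over the 22 libraries, which share the stage shift, so values near 1 or -1 mostly restate it. AGPL1 and CaSBE1 gave a Pearson r of 0.99 (Spearman 0.72), and SS1 and CaSBE1 gave -0.97 (Spearman -0.85). Once the mean of each stage was subtracted, the first pair was at 0.08 and the second at -0.47. The genes that then stayed most alike were GBSS2 and SS3 (Pearson 0.76, Spearman 0.70), AGPL2 and SS3 (0.74 and 0.48) and AGPL3 and SS1 (0.69 and 0.67). AGPL3 and SS1 thus ran in opposite directions over the whole set (-0.83) and together once the stage means were subtracted. That second value pools both stages, and neither stage was correlated alone. AGPL3 spanned 0.35 to 1.89 at 20 DAA but only -1.18 to -0.87 at 60 DAA, so likeness in ripe fruit cannot be read from it.

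**Figure D5:**
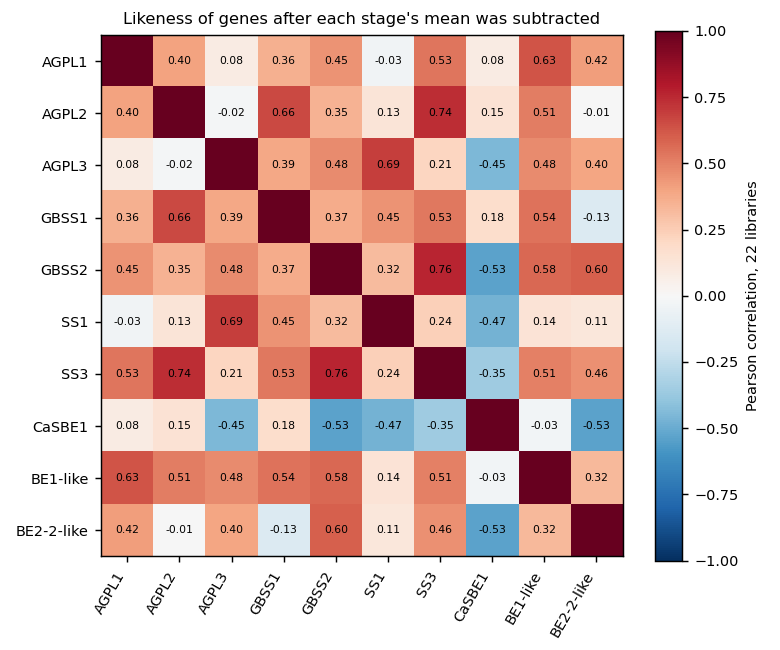
Pearson correlation between the 10 starch synthesis genes over 22 libraries after the mean of each stage was subtracted, with colour from -1 to 1 and the value in each cell. GBSS2 and SS3 (0.76) and AGPL2 and SS3 (0.74) are the most alike, and the lowest values are those of CaSBE1 with GBSS2 and with BE2-2-like (both -0.53).

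Among 12756 other genes with a descriptive name, those most like CaSBE1 over the 22 libraries were 3-ketoacyl-CoA synthase 5-like (LOC107860042, r = 0.997), an inactive receptor kinase (LOC107862133, 0.996) and an ankyrin repeat protein phosphatase 6 regulatory subunit (LOC107860738, 0.996). AGPL3 was most like the Rubisco small chain 8B gene (0.988), then 12-oxophytodienoate reductase 3 (LOC107877738, 0.985) and CRR1 (LOC107863336, 0.983). GBSS1 was closest to phenylalanine ammonia-lyase (LOC107854291, 0.989), UDP-glycosyltransferase 87A1 (LOC107875441, 0.989) and the isomerase CYP40 (LOC107840317, 0.986). The nearest gene to GBSS2 was glutathione transferase GST 23-like (LOC107843732, 0.992), before a GATA transcription factor (LOC107879827, 0.987) and a leucine-rich repeat receptor kinase (LOC107843030, 0.987). For SS3 they were uridine kinase-like 4 (LOC107845462, 0.958), the phosphatase IMPL1 (LOC107858915, 0.952) and RNA helicase 50 (LOC107847676, 0.948). BE1-like had the weakest matches of these genes: a glutathione S-transferase (LOC107878538, 0.900), a CBL-interacting kinase 1 (LOC107851417, 0.841) and the import subunit TIM44-2-like (LOC107848245, 0.840).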

How the data were processed

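Pericarp RNA of 22 libraries was sequenced as paired reads. Per the labels and methods, the authors used fastp 0.23.1 for trimming and Salmon 1.6.0 (quasi-mapping to the Zunla-1 transcripts of C. annuum), then tximport and DESeq2 1.36.0 in R 4.2.0. The deposited table holds variance-stabilized log2 values of 16922 genes, each centred on its mean (the largest gene mean was 0.00036 from 0). The transform compresses differences of low genes, a reference from another species can favour some paralogs, and reads shared by near-identical copies may be split between them. The values carry no depth, and library sizes were not used here. The columns name the accession and stage but not the replicate, so libraries were used as unnumbered replicates of their group.

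Group means of all 8 groups were fitted with limma 3.58.1 in R 4.3.3 (eBayes, 14 residual degrees of freedom), with Benjamini-Hochberg adjustment over all genes, an adjusted p under 0.05 and a log2 difference of at least 1. Pairs of genes of one enzyme class were compared by exact permutation. Both scripts were tested on simulated data. Gene lists were matched by words in the gene names. The text names all 10 genes, all further starch synthesis genes, the 3 largest called changes each way in the other lists and a further hexokinase-2 gene. It also names the 3 most alike genes of CaSBE1 and of each gene whose stage change differed. The 10 genes and the lists were chosen with earlier results of these data known. Alternatives were quantile normalization, median subtraction, array weights, robust eBayes, fits on subsets, no minimum difference, treat, a filter on genes with 3 or more libraries at the lowest value, other permutation and summary choices, and each library left out in turn. Figures were drawn with matplotlib 3.10.9.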

Additional observations from a re-analysis of the deposited data

Results flagged for a closer look

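The stage difference of 5 starch synthesis genes differed between accessions by the moderated F of limma over the 3 contrasts between accessions, with the largest difference between 2 accessions at 1.42 for AGPL3, 1.14 for GBSS1, 1.04 for GBSS2, 1.10 for SS3 and 1.79 for BE1-like (adjusted p = 2.67e-06, 0.0146, 0.00259, 0.000205 and 0.00952). Over the alternatives, the adjusted p lay between 2.92e-08 and 1.73e-05 for AGPL3, 0.000776 and 0.0381 for GBSS1, 0.000755 and 0.0241 for GBSS2, 8.88e-05 and 0.00333 for SS3, and 4.85e-05 and 0.0356 for BE1-like. The size threshold was the weaker point: GBSS2 was under 1 after median subtraction (0.997), with array weights (0.983) and after quantile normalization (0.68), which also took GBSS1 to 0.95 and SS3 to 0.78. BE1-like also differed between the pair Hab and A18 and the pair Biq and A101, by -1.02 (adjusted p = 0.0179, limma), and 4 of its 22 libraries stood at the lowest value of the gene, 3 of them of Hab and 1 of ripe A18.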

How the results depend on the processing

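The counts of genes that fell or rose in each accession and on average were within 1.5 times of those reported in all 298 recalculated counts and equal to them in 290. With no minimum difference, the stage change differed between accessions in 9 genes, levels differed at 20 DAA in 7 and at 60 DAA in 9, the red-yellow contrast had 3 lower and 2 higher genes, the pungency contrast 1 lower and 1 higher, and Hab with A18 against Biq with A101 had 5 lower. Quantile normalization gave 3 genes whose stage change differed, 3 genes that differed at 60 DAA, 1 higher in the red-yellow contrast (as did array weights) and 0 lower for Hab with A18 against Biq with A101, as did treat and the filter on genes at their lowest value, which removes BE1-like. Signs turned only in differences close to 0: under quantile normalization AGPL2 on average (0.0228), CaSBE1 between red and yellow (0.13) and AGPL2 and AGPL3 between pungent and non-pungent (0.0036 and 0.0025), and with array weights AGPL2 in A18 (-0.0157) and BE1-like between red and yellow (0.0127).

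With each library left out, the count at 20 DAA was 1 to 3, that of the red-yellow contrast 0 to 1 and that of Hab with A18 against Biq with A101 0 to 1. BE1-like in Hab ranged from -1.19 to -0.43 and passed without the first Hab library at 20 DAA. Signs of uncalled values also turned: AGPL2 in A18 (-0.0925 to 0.15), CaSBE1 between red and yellow (-0.11 to 0.0823) and for Hab with A18 (-0.0408 to 0.15), BE1-like between red and yellow (-0.27 to 0.11) and AGPL3 by pungency (-0.0824 to 0.0376). The cause of these shifts was not tested. A variance trend on expression level was not run, since centred values hold no levels. No paired analysis was possible because the columns used here carry no replicate numbers or blocks. The 2 or 3 libraries a group limit the precision of each difference, and the depth behind it was not used here.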
